A study of Mus musculus with 6 samples.

Results

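The genes next to *Esrra* on mouse chromosome 19 were examined in duodenal epithelium of mice that lack *Esrra*, as a check of what happens around a targeted allele. They are 10 genes chosen by position and symbol, *Rps6ka4*, *Prdx5*, *Trmt112*, *Gpr137*, *Bad*, *Plcb3*, *Ppp1r14b*, *Fkbp2*, *Vegfb* and *Dnajc4* in chromosomal order, out of 22611 genes with an expression value. The choice was made with earlier results of these data known, and 7 other genes within 100 kb of *Esrra* are not among the 10. RNA was sequenced from 3 WT and 3 *Esrra*-/- mice, 1 library per mouse, and the *Esrra*-/- libraries carry the label ESRRAKO. The epithelium was released from the duodenum with EDTA. The WT mice were littermate controls, both sexes were used, and all 6 mice were kept on high-fat feed for approximately 8 weeks. No other treatment is named for them and no age is stated. *Esrra*-/- is a germline null allele, so the mutation was not limited to the intestine or to adult life. The study bred its null mice in crosses that also carried a floxed *Esrra* allele and the *Villin-Cre*ERT2 transgene, and whether the WT littermates sequenced here carried either is not stated in the sources used here. How the null allele was built is likewise not given in them.

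*Esrra* encodes an orphan nuclear receptor that activates genes of mitochondrial energy metabolism. A gene that is replaced or interrupted in the germline brings its chromosomal surroundings with it, since neighbouring genes lie on the same stretch of DNA, share start regions or overlap at their ends, and are inherited together with the allele. The neighbours here have unrelated functions, from a subunit of methyltransferases (*Trmt112*) to a growth factor (*Vegfb*), so they do not form a pathway.

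In mm9 coordinates *Esrra* lies on the minus strand at chr19:6985467-6996303, and the 10 neighbours span 163.4 kb around it. Of the 10, 7 are on the same strand as *Esrra* and 3, *Trmt112*, *Bad* and *Ppp1r14b*, are on the other. *Trmt112*, at chr19:6984188-6985539, runs toward *Esrra* and ends inside it, so that the last 73 bases of both gene bodies overlap tail to tail. On the other side *Trmt112* shares 409 bases with *Prdx5*, at chr19:6981187-6984596, which is read in the opposite direction from an overlapping start region. *Rps6ka4*, at chr19:6903575-6915115, lies farther out on the same side with a gap of 70.4 kb to *Esrra*. On the side of the *Esrra* start, *Gpr137* (chr19:7012559-7016940) and *Bad* (chr19:7016351-7026388) overlap head to head by 590 bases. They are followed by *Plcb3* (chr19:7028204-7044279), *Ppp1r14b* (chr19:7049538-7051814), *Fkbp2* (chr19:7052231-7054930), *Vegfb* (chr19:7056963-7062141) and *Dnajc4* (chr19:7062401-7067008). *Ppp1r14b*, *Fkbp2*, *Vegfb* and *Dnajc4* start within 53.2 to 70.7 kb of the *Esrra* start site.

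The stretches before the starts of *Ppp1r14b*, *Fkbp2* and *Vegfb* are shown because these genes follow each other on the chromosome, and the outer pair was lower in *Esrra*-/- while the value of the middle one overlapped between the genotypes. Each is the 250 bases before the most upstream start of a coding transcript, read 5′ to 3′ from mm9. Capitals mark CCGGAAG, a core bound by ETS factors, in *Fkbp2* and AGGTCA, the half-site of nuclear receptors, in *Vegfb*.
Ppp1r14b, chr19:7049288-7049537, plus strand: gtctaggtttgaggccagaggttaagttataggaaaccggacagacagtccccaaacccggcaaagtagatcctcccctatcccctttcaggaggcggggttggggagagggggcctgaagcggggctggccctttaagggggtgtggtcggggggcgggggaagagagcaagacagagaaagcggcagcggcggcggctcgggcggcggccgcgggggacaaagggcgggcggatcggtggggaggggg
Fkbp2, chr19:7054931-7055180, minus strand: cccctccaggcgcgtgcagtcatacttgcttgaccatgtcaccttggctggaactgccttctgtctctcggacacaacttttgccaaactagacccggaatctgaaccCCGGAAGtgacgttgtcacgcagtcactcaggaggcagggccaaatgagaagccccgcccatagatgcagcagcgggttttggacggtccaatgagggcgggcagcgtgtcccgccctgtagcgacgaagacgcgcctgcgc
Vegfb, chr19:7062142-7062391, minus strand: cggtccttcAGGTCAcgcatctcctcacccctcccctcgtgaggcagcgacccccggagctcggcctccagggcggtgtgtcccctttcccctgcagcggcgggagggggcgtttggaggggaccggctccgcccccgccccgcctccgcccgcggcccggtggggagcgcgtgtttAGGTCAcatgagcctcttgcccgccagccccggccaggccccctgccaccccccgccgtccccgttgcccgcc

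The 9-base motif of estrogen-related receptors, TCAAGGTCA, was found on neither strand of these 250-base stretches for the 10 neighbours, nor was the shorter AAGGTCA that it contains. Over all 22210 stretches of this kind in the genome that could be read, 0.315% held the longer and 3.38% the shorter. AGGTCA, which is contained in both and was searched after the sequences had been seen, occurred in 1 of the 10 neighbours, *Vegfb*, with 2 copies. It was present in 12.6% of all stretches, and 1.05% had at least 2 copies. CCGGAAG was found before *Prdx5* and *Fkbp2* and in 8.35% of all stretches. The 10-base motif of the factor NRF1 was found before none of the 10 and in 0.919% of all stretches. The bases G and C made up 76.4% of the stretch before *Vegfb*, 66.8% before *Ppp1r14b* and 60.4% before *Fkbp2*, where the median of all stretches was 54.4%. The stretch before *Trmt112* is not printed, because 239 of its 250 bases lie in exons of *Prdx5*. These matches describe the letters in the window and do not show binding.

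Expression was taken as the authors' FPKM, a fragment count scaled by transcript length and library size, so levels can be set side by side between genes of different length. Differences were tested with limma on log2(FPKM + 0.1) over the 10596 genes with a mean above 1 FPKM, and all 10 neighbours passed this limit. Fold changes are on that scale, *Esrra*-/- over WT. A call, lower or higher, needed both a fold change past 0.58 on the log2 scale and an unadjusted p under 0.05, which are the study's thresholds. All adjusted p-values given are limma's with Benjamini-Hochberg adjustment over the genes tested. These are the 10596 genes, except in 2 alternative fits with another filter. Of those, 1 took the 17679 genes with any value above 0 and 1 the 9727 genes above 1 FPKM in all 6 libraries. FPKM values carry no fragment counts. Among genes under 0.2 FPKM, the most common ratio of a library's value to that in WT replicate 1 was 0.975 to 1.21, and replicate 3 of each genotype had the highest ratios, 1.20 and 1.21. Y-linked transcripts were near 0 in replicate 3 of both genotypes and present in the other 4 libraries. The 10 epithelial markers checked, such as *Epcam* and *Vil1*, were all expressed, and limma called 0 of them, with 0 at an unadjusted p under 0.05. Of 8 immune markers 6 were tested and 0 called in limma, with 1, *Itgam*, higher at an unadjusted p under 0.05, and summed levels of 29.8 to 54.9 FPKM in WT and 27.8 to 52.2 FPKM in *Esrra*-/-. The 6 mesenchymal markers summed to 0.209 to 0.949 FPKM in WT and 0.448 to 2.55 FPKM in *Esrra*-/-, the 3 muscle markers to 0.0959 to 0.181 and 0.1995 to 1.45 FPKM, and no gene of either list reached the limit for testing. Of 4 endothelial markers 1 was tested, *Tek*, and it was called higher at 0.503 ± 0.639 FPKM in WT against 1.64 ± 0.507 in *Esrra*-/- (SD, n = 3 each), with overlapping groups. *Cdh5* and *Kdr* of that list were at or near 0, and the list summed to 0.325 to 1.601 FPKM in WT and 1.35 to 2.50 FPKM in *Esrra*-/-. The part of other cell types in the results below was not tested. In such bulk samples fewer cells of a type and less RNA per cell cannot be told apart.

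*Esrra* itself was measured first as a check of the labels. Its values were 49.4, 73.5 and 103.6 FPKM in WT replicates 1 to 3 and 10.4, 9.42 and 8.72 FPKM in *Esrra*-/- replicates 1 to 3. Every *Esrra*-/- library lay far below every WT library, with a residual 12.6% of the WT mean. On the log2 scale the change was −2.92 (limma, standard error SE = 0.26, adjusted p = 0.0215). The gene was called lower in all 15 alternative fits, while its adjusted p ranged from 0.0212 to 0.186 over them (limma). It was above 0.05 with a replicate block (0.0709), in the 4 libraries with Y-linked transcripts alone (0.186) and in 4 of the 6 fits with a library left out.

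Of the 10 neighbours, 2 were called lower, *Vegfb* and *Ppp1r14b*, and 1 was called higher, *Trmt112*. Among all genes tested, 3.28% were called lower and 1.35% higher, or 4.63% in either direction. None of the 10 had an adjusted p under 0.05, a limit that 0.0378% of all genes passed, and 3 had an unadjusted p under 0.05 in limma, against 10.8% of all genes. The same 3 were the neighbours whose genotypes did not overlap, a pattern seen in 17.6% of all genes, 9.14% with *Esrra*-/- lower and 8.45% with *Esrra*-/- higher. The other 7 neighbours were not called, and the 95% interval of each of their fold changes included 0. The median log2 fold change of the 10 was −0.15 beside 0.03 for all genes tested, with 6 negative and 4 positive values.

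**Figure D1:**
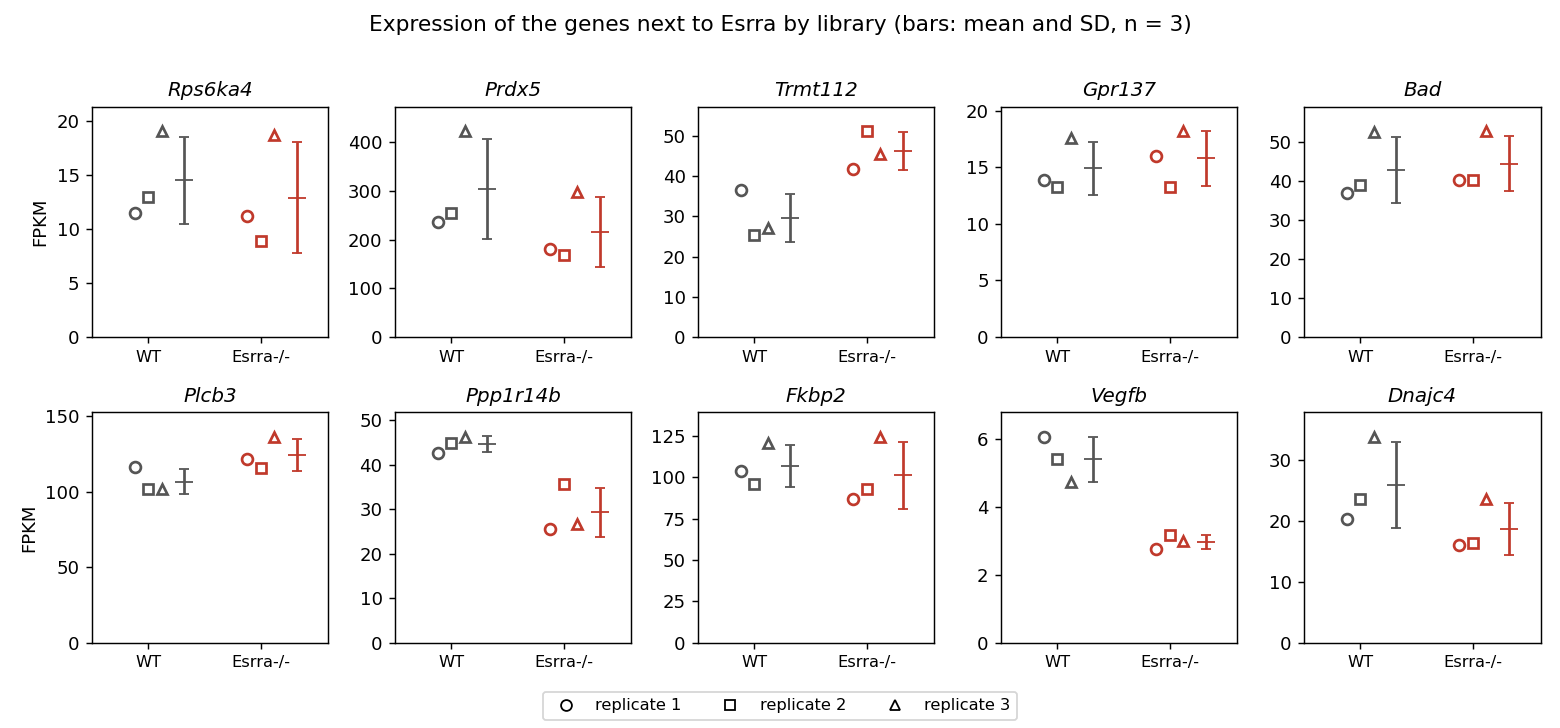
Expression in FPKM (vertical axes, each from 0) of the 10 genes next to *Esrra* in each of the 6 libraries, WT in grey and *Esrra*-/- in red, with symbols for the replicate and bars for the mean and SD of 3 mice. The genotypes are apart for *Trmt112*, *Ppp1r14b* and *Vegfb*, and the triangles of replicate 3 are the highest of both genotypes for 6 of the 10 genes.

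*Vegfb* encodes a member of the vascular endothelial growth factor family, a secreted protein that binds the receptor FLT1 and its co-receptor NRP1. It was at 6.07, 5.43 and 4.73 FPKM in WT replicates 1 to 3 and at 2.76, 3.18 and 2.99 FPKM in the *Esrra*-/- replicates. The lowest WT library was above the highest *Esrra*-/- library, and within a genotype the values lay within 1.28 times of each other in WT and 1.15 times in *Esrra*-/-. The mean fell from 5.41 ± 0.669 to 2.98 ± 0.213 FPKM (SD, n = 3 each), or to 55.0% of WT. Its log2 fold change was −0.84 (limma, SE 0.15, 95% interval −1.19 to −0.49, adjusted p = 0.165). The two-sided exact permutation test over the mice gave p = 0.1, which is the smallest that 3 against 3 can give. The call was made in all 6 fits that left out 1 library, with log2 fold changes of −0.93 to −0.75.

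Of 9 other genes of the VEGF family and its receptors, 2 were above the limit for testing and 0 were called in limma, both with an unadjusted p above 0.05. *Vegfa*, the main angiogenic member, was at 31.7 ± 8.31 FPKM in WT against 34.8 ± 11.7 FPKM in *Esrra*-/- (SD, n = 3 each), at the level of the mid-range neighbours and above *Vegfb* in all 6 libraries. *Vegfc*, the lymphatic growth factor of the family, had a log2 fold change of 0.19 (limma, SE 0.24, adjusted p = 0.800). *Flt1* was at most 0.0203 FPKM in any library and *Nrp1* was at 0.109 to 0.191 FPKM, so the receptors for the *Vegfb* product were hardly detected in this epithelial preparation.

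*Ppp1r14b* encodes an inhibitor of protein phosphatase 1 of the family that acts on myosin phosphatase. It was at 42.6, 44.9 and 46.2 FPKM in WT replicates 1 to 3 and at 25.5, 35.5 and 26.7 FPKM in the *Esrra*-/- replicates. The WT libraries were close together and *Esrra*-/- replicate 2 was nearest to them. The mean fell from 44.6 ± 1.83 to 29.2 ± 5.50 FPKM (SD, n = 3 each), with a log2 fold change of −0.62 (limma, SE 0.16, 95% interval −0.99 to −0.25, adjusted p = 0.290). The two-sided exact permutation p was again 0.1. The fold change lay just past the threshold for a call, and it was −0.53 without *Esrra*-/- replicate 1 and −0.56 without *Esrra*-/- replicate 3, where the call was lost.

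Of 7 genes for myosin phosphatase subunits and other inhibitors of this family, 4 were tested and 0 were called by limma, each with an unadjusted p above 0.05. *Ppp1r14d*, the family member with the highest level here, was at 177 ± 48.8 FPKM in WT against 219 ± 29.3 FPKM in *Esrra*-/- (SD, n = 3 each), and *Ppp1r14a* and *Ppp1r14c* were under the limit for testing. The gene of the list with the smallest p was *Ppp1r12a*, the regulatory subunit of myosin phosphatase, with a log2 fold change of 0.27 (limma, SE 0.15, adjusted p = 0.558).

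*Trmt112* encodes a small protein that activates several methyltransferases acting on transfer RNA, ribosomal RNA and translation factors. It was at 36.5, 25.3 and 27.0 FPKM in WT replicates 1 to 3 and at 41.7, 51.1 and 45.6 FPKM in the *Esrra*-/- replicates. All *Esrra*-/- values were higher than all WT values, and WT replicate 1 was nearest to the other genotype. The mean rose from 29.6 ± 6.06 to 46.2 ± 4.72 FPKM (SD, n = 3 each), or 1.56-fold, with a log2 fold change of 0.65 (limma, SE 0.17, 95% interval 0.25 to 1.06, adjusted p = 0.308). The two-sided exact permutation p was 0.1. Without WT replicate 2 the log2 fold change was 0.55 and without *Esrra*-/- replicate 2 it was just under the threshold at 0.577, and in both fits the gene was not called.

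*Trmt112* is the neighbour that overlaps *Esrra*. The labels name a TruSeq RNA kit, version 2, which does not mark strand, so fragments from the shared bases of the pair cannot be assigned by strand. The exons shared with *Esrra* make up 52 of the 985 bases of the longest coding *Trmt112* transcript, or 5.28%. Across the genotypes the pair moved in opposite directions, *Esrra* down and *Trmt112* up. What part the null allele or the overlap has in the *Trmt112* values was not tested.

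Of 7 methyltransferases that bind the *Trmt112* product, 6 were tested and 0 were called by limma, each with an unadjusted p above 0.05. Their median log2 fold change was −0.17. *Wbscr22*, the enzyme for the small ribosomal subunit RNA, had the smallest p and was at 19.5, 18.8 and 16.9 FPKM in WT and 23.4, 23.4 and 20.2 FPKM in *Esrra*-/-. The genotypes did not overlap for it, and its log2 fold change was 0.28 (limma, SE 0.13, adjusted p = 0.480).

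*Prdx5*, which encodes a peroxiredoxin found in mitochondria, peroxisomes and the cytosol, was the neighbour with the highest level. It was at 236.5, 253.8 and 422.1 FPKM in WT replicates 1 to 3 and at 179.6, 167.5 and 297.5 FPKM in the *Esrra*-/- replicates. Replicate 3 was the highest of both genotypes, and *Esrra*-/- replicate 3 lay above WT replicates 1 and 2, so the genotypes overlapped. The log2 fold change of −0.50 (limma, SE 0.31, 95% interval −1.22 to 0.22, adjusted p = 0.592) did not pass the test. It was called lower in 1 of the 6 fits that left out a library, without *Esrra*-/- replicate 3, at −0.76. Within the 4 libraries that had Y-linked transcripts it was −0.50 and between the remaining pair −0.50.

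Among the 5 other peroxiredoxins, 1 was called lower and 0 higher, and the median log2 fold change was −0.43. The one called was *Prdx4*, the peroxiredoxin of the endoplasmic reticulum, which fell from 16.4 ± 2.69 to 10.3 ± 2.08 FPKM (SD, n = 3 each), with a log2 fold change of −0.67 (limma, SE 0.19, adjusted p = 0.326). *Prdx3*, the mitochondrial one, had a log2 fold change of −0.43 and *Prdx2*, of the cytosol, one of −0.53, both short of the 0.58 for a call, with groups that did not overlap and an unadjusted p under 0.05. *Prdx1* had −0.33 and *Prdx6* −0.05, both with overlapping groups. Over all genes tested 3.28% were called lower, 9.14% had every *Esrra*-/- value below every WT value and 10.8% had an unadjusted p under 0.05, and with 5 genes these counts are a description.

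*Dnajc4*, which encodes a member of the DnaJ family of co-chaperones, lies 259 bases beyond the start of *Vegfb*. It was at 20.4, 23.7 and 33.8 FPKM in WT replicates 1 to 3 and at 16.1, 16.4 and 23.6 FPKM in the *Esrra*-/- replicates. Replicate 3 was again the highest of both genotypes, and *Esrra*-/- replicate 3 reached the WT range. The log2 fold change was −0.46 (limma, SE 0.23, 95% interval −1.01 to 0.09, adjusted p = 0.531). It passed the call in 2 of the 6 fits with a library left out, at −0.62 without WT replicate 1 and −0.64 without *Esrra*-/- replicate 3.

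The genotypes overlapped for the other 5 neighbours. *Plcb3*, a phospholipase C that acts downstream of G protein-coupled receptors, was at 116.6, 101.7 and 102.1 FPKM in WT and 121.9, 115.5 and 136.3 FPKM in *Esrra*-/-, with a log2 fold change of 0.22 (SE 0.14, 95% interval −0.11 to 0.55). It was the phospholipase C beta of this tissue, as *Plcb1*, *Plcb2* and *Plcb4* all had means under 1 FPKM. *Fkbp2*, a prolyl isomerase of the endoplasmic reticulum, was at 103.5, 96.2 and 120.7 FPKM in WT and 86.6, 92.6 and 124.3 FPKM in *Esrra*-/-. Its log2 fold change was −0.09 (95% interval −0.52 to 0.34), although it lies between both neighbours that were lower.

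*Bad*, a pro-apoptotic member of the BCL2 family, was at 36.9, 38.9 and 52.6 FPKM in WT and 40.3, 40.3 and 52.7 FPKM in *Esrra*-/-, with a log2 fold change of 0.06 (95% interval −0.38 to 0.50). *Gpr137*, which encodes a membrane protein and overlaps *Bad* at its start, was at 13.9, 13.3 and 17.6 FPKM in WT and 16.0, 13.3 and 18.2 FPKM in *Esrra*-/-, with a log2 fold change of 0.08 (95% interval −0.31 to 0.48). *Rps6ka4*, a kinase that phosphorylates chromatin proteins and CREB under MAP kinase signalling, was at 11.4, 13.0 and 19 FPKM in WT and 11.1, 8.86 and 18.6 FPKM in *Esrra*-/-. Its log2 fold change was −0.20, with a wide 95% interval from −0.91 to 0.50. For *Bad*, *Gpr137*, *Fkbp2* and *Plcb3* a change of 0.58 in either direction lies outside the interval, and for *Rps6ka4* it does not.

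Relatives of these 5 genes were read against the 4.63% of all genes called. Of 13 other FK506-binding proteins 8 were tested and 1 was called lower, *Fkbp3*, a nuclear member, with a log2 fold change of −0.59 (limma, SE 0.18, adjusted p = 0.355). Of 8 other genes of the BCL2 family 7 were tested and 0 were called in limma. Of these *Bid*, a pro-apoptotic relative of *Bad*, had an unadjusted p under 0.05 and was at 5.03 ± 0.641 FPKM in WT and at 7.34 ± 1.00 in *Esrra*-/- (SD, n = 3 each), with a log2 fold change of 0.54 that stayed under the fold threshold (limma adjusted p = 0.331). Of 5 other ribosomal S6 kinases 3 were tested and 0 were called, each with an unadjusted limma p above 0.05. The smallest p was that of *Rps6ka3*, a kinase of the RSK group, with a log2 fold change of 0.25 (limma adjusted p = 0.636). *Gpr137b* and *Gpr137c* were under 1 FPKM in every library.

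Ordered by their mean in WT, the neighbours ran from *Prdx5* at 304.1 FPKM through *Plcb3* and *Fkbp2*, both at 106.8, *Ppp1r14b* at 44.6, *Bad* at 42.8, *Trmt112* at 29.6, *Dnajc4* at 25.9, *Gpr137* at 14.9 and *Rps6ka4* at 14.5 to *Vegfb* at 5.41 FPKM. The highest mean was 56.2 times the lowest. Neighbours in this order whose WT ranges overlapped were *Plcb3* and *Fkbp2*, *Ppp1r14b* and *Bad*, *Trmt112* and *Dnajc4*, and *Gpr137* and *Rps6ka4*. In *Esrra*-/- the order was the same at both ends, and in the middle *Trmt112* at 46.2 and *Bad* at 44.4 FPKM stood above *Ppp1r14b* at 29.2 FPKM, whose range lay apart from that of *Bad*.

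Ratios between genes that follow each other on the chromosome depend little on the scaling of a library. Over the 9 neighbouring pairs among the 10 genes, the log2 ratio did not overlap between the genotypes in 3, against 17.4% of the neighbouring pairs among all genes tested. *Trmt112* and *Gpr137* have *Esrra* between them, and without that pair the count was 3 of 8. This comparison was chosen after the values had been seen, and pairs that follow each other share a gene. The ratios of *Fkbp2* to *Vegfb* and of *Plcb3* to *Ppp1r14b* each hold a gene called above, so they partly restate its fold change. The log2 ratio of *Fkbp2* to *Vegfb* was 4.07, 4.12 and 4.64 in WT and 4.92, 4.82 and 5.33 in *Esrra*-/-, a difference of 0.75 (two-sided exact permutation p = 0.1). That of *Plcb3* to *Ppp1r14b* was 1.45, 1.18 and 1.14 in WT and 2.26, 1.698 and 2.35 in *Esrra*-/-, a difference of 0.84 (two-sided exact permutation p = 0.1). The ratio of *Rps6ka4* to *Prdx5*, which are 66.1 kb apart, differed by 0.30 with the same exact p.

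The pair that shares a start region, *Prdx5* and *Trmt112*, had fold changes of opposite sign. Its log2 ratio was 2.69, 3.32 and 3.96 in WT and 2.103, 1.71 and 2.70 in *Esrra*-/-. The means differed by −1.15, and *Esrra*-/- replicate 3 was level with WT replicate 1 (two-sided exact permutation p = 0.2). For *Gpr137* and *Bad*, the other pair with overlapping starts, the log2 ratio was −1.51 ± 0.0866 in WT and −1.48 ± 0.136 in *Esrra*-/- (SD, n = 3 each).

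**Figure D2:**
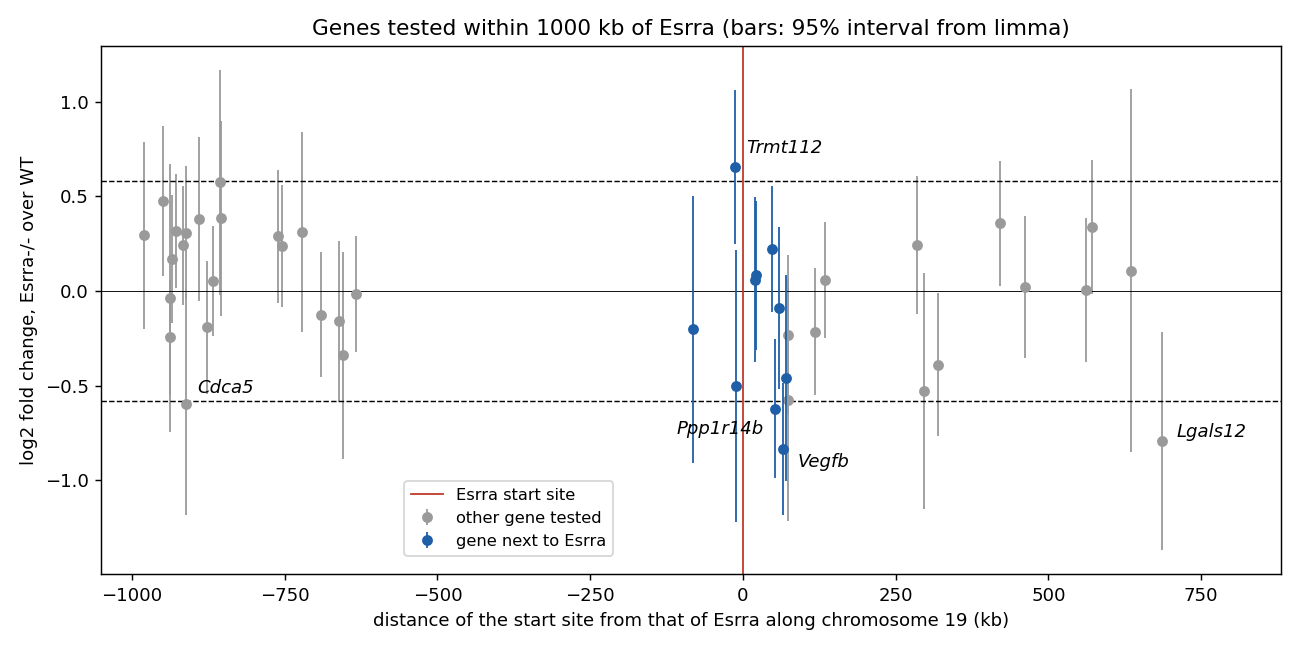
Log2 fold change, *Esrra*-/- over WT, of each gene tested within 1000 kb of *Esrra* (vertical axis) against the distance of its start site from that of *Esrra* in kb (horizontal axis), with 95% intervals and dashed lines at the thresholds of 0.58. The 3 called genes next to *Esrra* start at −12.1, 53.2 and 65.8 kb, between genes whose intervals include 0.

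The table also holds 7 other genes within 100 kb of *Esrra*. *1700019N12Rik* and *Kcnk4*, which encodes a potassium channel, are the first genes past the *Esrra* start site, with gaps of 0.612 and 3.90 kb. They were at 0.181 and 0.153 FPKM in WT and 0.317 and 0.199 FPKM in *Esrra*-/- on average, under the limit for testing, as were *Ccdc88b* and *Fermt3*. *Nudt22*, *Trpt1* and *Stip1*, beyond *Dnajc4*, were tested and not called. *Trpt1*, a tRNA phosphotransferase gene that starts 74.3 kb from the *Esrra* start, came closest at 3.19 ± 0.982 FPKM in WT against 2.07 ± 0.458 FPKM in *Esrra*-/- (SD, n = 3 each), with overlapping groups and a log2 fold change of −0.58 (limma, SE 0.27, adjusted p = 0.504). *Stip1*, a co-chaperone gene, had −0.21 and *Nudt22*, of the Nudix hydrolases, −0.23.

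By distance, 3 of 13 genes tested within 100 kb were called, 3 of 14 within 250 kb, 3 of 19 within 500 kb and 5 of 44 within 1000 kb, *Esrra* left out. On chromosome 19 as a whole 6.78% of the genes tested were called. Both calls beyond 100 kb were lower. *Lgals12*, a galectin gene of adipocytes with a gap of 674.8 kb, was at 2.67 ± 0.406 FPKM in WT against 1.52 ± 0.413 FPKM in *Esrra*-/- (SD, n = 3 each; limma adjusted p = 0.353). *Cdca5*, a gene for sister chromatid cohesion with a gap of 893.7 kb on the other side, was at 3.24 ± 0.713 and 2.12 ± 0.547 FPKM in the same order (limma adjusted p = 0.454). Within 50 kb, 1 of 5 genes tested was called.

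**Figure D3:**
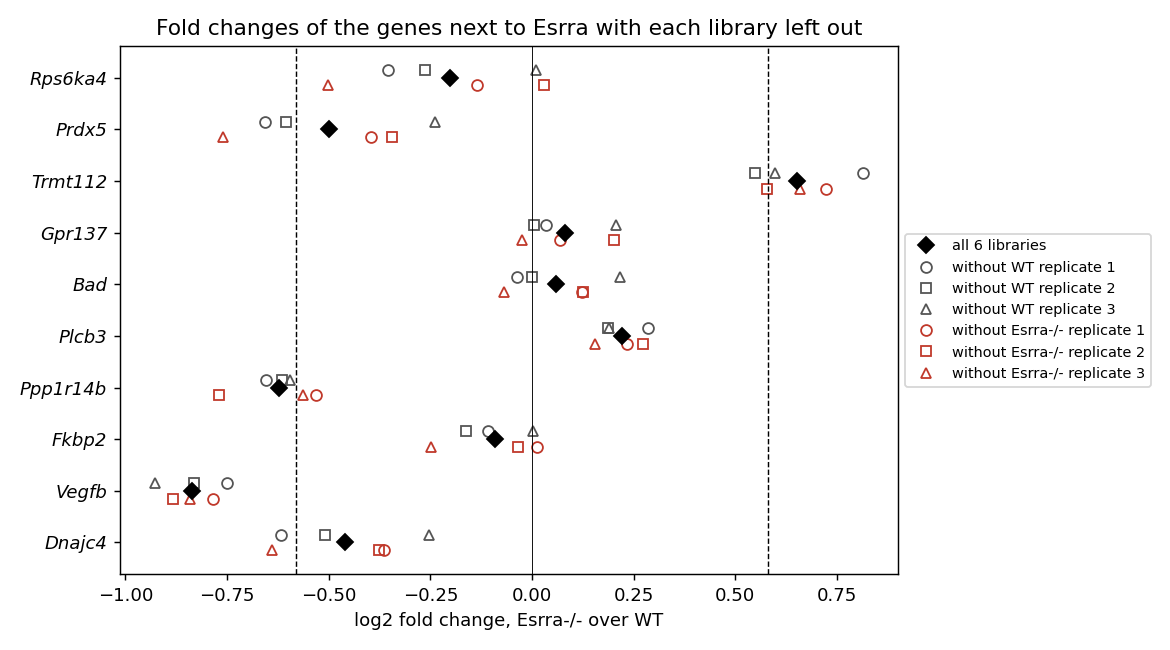
Log2 fold change, *Esrra*-/- over WT, of the 10 genes next to *Esrra* (rows in chromosomal order) from all 6 libraries (diamonds) and with each library left out (open symbols), with dashed lines at the thresholds of 0.58. *Vegfb* stays past the threshold in all 6 fits and *Ppp1r14b* and *Trmt112* in 4 each, while *Prdx5* is past it in 3 (without WT replicate 1, WT replicate 2 or *Esrra*-/- replicate 3) and *Dnajc4* in 2 (without WT replicate 1 or *Esrra*-/- replicate 3).

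Replicate 3 was often the highest library, at the locus and elsewhere. It was the highest of the 3 libraries for 7 of the 10 neighbours in WT and for 7 in *Esrra*-/-, and for 6 in both, namely *Rps6ka4*, *Prdx5*, *Gpr137*, *Bad*, *Fkbp2* and *Dnajc4*. Of all genes tested with a known position, 42.2% were highest in replicate 3 of WT, 43% in replicate 3 of *Esrra*-/- and 28.1% in both. None of the 3 called genes was among these 6. In the 4 libraries with Y-linked transcripts the log2 fold change was −0.93 for *Vegfb*, −0.54 for *Ppp1r14b* and 0.60 for *Trmt112*, and between the replicate 3 libraries it was −0.64, −0.79 and 0.75 in the same order. The latter pair is 1 library against 1 and has no test, and since the genotypes of these 3 genes do not overlap, the direction is fixed in any such split. *Ppp1r14b* was not called in the 4 libraries alone.

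The genes whose values across the 6 libraries were most like those of the called neighbours were found by the root mean square difference of log2 values, each centred on the gene's own mean. For *Vegfb* they were *B230120H23Rik* at 0.0868, *Mrps35* at 0.105 and *1500001M20Rik* at 0.115. For *Ppp1r14b* they were *Creg1* at 0.0689, *Mif* at 0.0712 and *Nxt1* at 0.0722, and for *Trmt112* they were *Tap2* at 0.0675, *Atat1* at 0.0899 and *AI661453* at 0.0967. These 9 genes are listed as a description over 6 libraries that fall into 2 groups.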

How the data were processed

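RNA-seq libraries of 3 WT and 3 *Esrra*-/- duodenal epithelia were used. Per the submitters' processing notes, reads were checked with FastQC 0.11.3, quantified with kallisto 2.1.0 against mm9 and turned into FPKM with DESeq2 2.2.1. The authors deposited FPKM values for 22611 genes in 6 libraries and a table of their own comparison (mean count, fold change, standard error, statistic and p-values), which was not used. The annotation behind the FPKM values is not given in the sources used here. Gene positions and sequence came from GENCODE M1 and NCBIM37, the assembly also called mm9, where 22586 symbols were found and 25 were not.

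On log2(FPKM + 0.1), every gene whose mean exceeded 1 FPKM was tested in limma 3.58.1 (R 4.3.3, moderated fit, prior variance following mean expression) without covariates. The fit was tested on simulated data. Single genes were also tested with exact permutation in SciPy 1.17.1. A count test was not run, as FPKM values are not counts. The depth is not known from FPKM, so precision is given by the spread between mice. The neighbours and gene lists were chosen with earlier results of these data known. Besides the 10 neighbours and *Esrra*, the text names other genes within 100 kb, genes called within 1000 kb, the called genes or the gene with the smallest p of each list, and the 3 genes most like each called neighbour. *Vegfa*, *Flt1*, *Nrp1*, *Ppp1r14a*, *Ppp1r14c*, *Ppp1r14d*, *Itgam*, *Prdx1*, *Prdx2*, *Prdx3*, *Prdx6* and the markers named beyond this rule were chosen after their values were seen. Alternatives were other pseudocounts, filters, scalings, thresholds and distances, limma without a trend, a replicate block, each library left out and the libraries with Y-linked transcripts alone.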

Additional observations from a re-analysis of the deposited data

How the results depend on the processing

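Over 15 alternative fits of the 10 neighbours, 135 of 150 fold changes kept their direction and their side of the call. *Vegfb* was called in all 15. The adjusted p ranged over these fits from 0.073 to 0.587 for *Vegfb*, 0.106 to 0.761 for *Ppp1r14b* and 0.144 to 0.761 for *Trmt112*. For *Prdx5* and *Dnajc4*, which the main fit did not call, the limma adjusted p ran from 0.0953 to 0.861 and from 0.106 to 0.841. For the remaining neighbours it was 0.292 or higher in every alternative fit. No scaling moved the median of all genes by more than 0.0149 on the log2 scale. The count of neighbours called lower ran from 1 (without *Esrra*-/- replicate 1) to 3 with a library left out, that of neighbours called higher from 0 (without WT replicate 2 or *Esrra*-/- replicate 2) to 1, and that of genes called within 100 kb from 2 to 5 (without *Esrra*-/- replicate 3). With an adjusted p under 0.05 in limma these counts were 0, 0 and 0, against 2, 1 and 3 at an unadjusted p under 0.05 with no fold limit. In the libraries with Y-linked transcripts 1 neighbour was called lower. The count of genes called was 1 within 50 kb and 5 within 1000 kb. The fold changes that turned sign all came from uncalled genes with a library left out. Over these 6 fits the log2 fold change ran from −0.5025 to 0.0295 for *Rps6ka4*, highest without *Esrra*-/- replicate 2, from −0.0238 to 0.2072 for *Gpr137* and −0.0685 to 0.217 for *Bad*, both lowest without *Esrra*-/- replicate 3, and from −0.2474 to 0.0135 for *Fkbp2*, highest without *Esrra*-/- replicate 1. The cause was not tested. With the replicate number as a block, 2 neighbours were called lower and 1 higher, and no call at the unadjusted threshold changed. *Esrra* kept a log2 fold change of −2.92, and its limma adjusted p rose to 0.0709. For each neighbour the limma adjusted p was lower than in the main fit, and none was under 0.05. It went from 0.592 to 0.0953 for *Prdx5* and from 0.53 to 0.106 for *Dnajc4*. Their log2 fold changes stayed at −0.50 and −0.46, short of the limit for a call. For *Vegfb*, *Ppp1r14b* and *Trmt112* the limma adjusted p with the block was 0.0875, 0.106 and 0.144. The replicate numbers were not taken to pair the mice, since deviations of the replicate 1 libraries had a correlation of 0.0116 across genes, beside 0.263 and 0.376 for replicates 2 and 3. Between libraries of unlike number the correlation ran from −0.366 to 0.182, below the values of replicates 2 and 3. The main fit does not model what the libraries of those replicates share. With 3 mice a group, changes smaller than the intervals given above were not detectable.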
